A study of Mus musculus with 9 samples.

Results

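The sirtuins Sirt1 to Sirt7 and the forkhead factors Foxo1 and Foxo3 were followed in RNA of mouse bone marrow cells labelled as haematopoietic stem cells (HSC). These 9 genes were chosen by name, as the 7 mouse sirtuins and 2 FoxO factors, and make up 9 of the 23317 genes in the deposited table. All 9 passed the filter on low counts. The study asked how old HSC differ from young HSC, and what an inhibitor of sphingosine metabolism does to old HSC. Low-input RNA-seq, in which RNA of a small number of sorted cells is copied and amplified before sequencing, gave 9 libraries from 1500 cells each.

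The first group was old HSC treated with ABC294640, labelled as blocking sphingosine kinase 2, one of the enzymes that phosphorylate sphingosine. The second group was untreated old HSC and the third young HSC, with 3 libraries in each group. All mice were wild type, and all libraries were made from bone marrow cells with 12 cycles of PCR. The protocols give an age of 20 to 24 months for the old mice, taken here to cover treated and untreated old HSC, and 2 to 4 months for the young mice. Neither the inhibitor's dose, route and duration nor the sort's markers are given in the sources used. Whether each library is a different animal is not stated, so the p-values measure only the spread between libraries, which may be technical.

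Sirtuins are enzymes that use NAD+ to remove acetyl and other acyl groups from lysines of proteins, which ties their activity to the NAD+ supply of the cell. Sirt1, Sirt6 and Sirt7 act mainly in the nucleus, Sirt2 mainly in the cytoplasm, and Sirt3, Sirt4 and Sirt5 in mitochondria. FoxO factors are transcription factors held in the cytoplasm when growth factor signals activate AKT and SGK kinases, and in the nucleus they switch on genes for antioxidant enzymes, cell cycle arrest and autophagy. Sirt1 can deacetylate FoxO factors, and Foxo3 is known from mouse knockouts to be needed for the upkeep of the HSC pool. These readouts are transcript levels, so enzyme activity and the location of FoxO proteins were not measured.

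Library totals ran from 16663559 to 23254225 counts and 18227 to 20285 genes were detected per library. The first young library stood apart: its chi-square per degree of freedom was 8.36 and 7.67 against the other young libraries, and all other pairs within a group lay between 2.23 and 5.38. No 2 libraries agreed within sampling noise. Markers of the label were present, some of them at low level: Procr averaged 3.19, 2.54 and 3.89 CPM (counts scaled to a common library size) in treated old, old and young HSC, and Fgd5 0.450, 0.648 and 1.27 CPM. Genes of granulocyte and monocyte precursors were far higher, with Mpo at 16290, 16800 and 11260 CPM and Elane at 15720, 16260 and 11140 CPM in the same order. In bulk RNA, fewer cells of a type and less RNA per cell cannot be told apart.

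The summed marker levels differed with age and stand beside every result on age that follows. The 15 HSC markers, a list that includes the progenitor markers Cd34 and Flt3, summed to 552.6 to 565.4 CPM in old HSC and 660.3 to 670.3 CPM in young HSC. Of the 15, 2 were called higher and 7 lower, at an edgeR adjusted p under 0.05. Over all 14227 genes tested, 19.6% were called higher and 19.8% lower in old HSC, and these shares stand beside each count of called markers here. Cd34, the largest term of the sum, averaged 149.9 CPM in old HSC and 187.7 CPM in young HSC. Flt3 averaged 35.5 CPM in old HSC and 29.7 CPM in young HSC. The 14 granulocyte and monocyte markers summed to 49220 to 52290 CPM in old HSC and 33380 to 37490 CPM in young HSC, with 10 higher and 2 lower. Of the 11 tested erythroid markers 2 were higher and 9 lower in old HSC, summing to 1080 to 1094 CPM, against 1835 to 1878 CPM in young HSC. Of the 10 megakaryocyte and platelet markers none was higher and 5 were lower, summing to 331.7 to 362.3 CPM in old HSC and 596.1 to 646.2 CPM in young HSC. Of the 9 tested B cell and plasma cell markers 2 were higher and 2 lower, summing to 677.1 to 762.5 CPM in old HSC and 341.2 to 384.8 CPM in young HSC, with most of the difference in Igkc, at 532.7 CPM in old HSC and 164.7 CPM in young HSC. Of the 7 tested T and NK cell markers 2 were called higher and 1 lower. Called or not, 5 of these 7 had a log2 fold change below 0, and the median was -0.53. The sum of this list, nearly all of it Nkg7, was 1742 to 1901 CPM in old HSC and 1338 to 1493 CPM in young HSC, and does not show the other markers. No marker in the table was at 0 in all libraries. Each of these 6 sums gave p = 0.1 in a two-sided exact permutation test, the smallest that 3 against 3 libraries can give. The part of these cell types in the results on sirtuins and FoxO factors was not tested.

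The 9 genes lie on 6 chromosomes and all are protein coding. Foxo3 (ENSMUSG00000048756) lies at chr10:42181841-42276755 on the minus strand, Foxo1 (ENSMUSG00000044167) at chr3:52268336-52353221 on the plus strand, and Sirt3 (ENSMUSG00000025486) at chr7:140863666-140882309 on the minus strand, in GRCm38. Sirt7 (ENSMUSG00000025138) lies at chr11:120618372-120625240 on the minus strand and Sirt1 (ENSMUSG00000020063) at chr10:63319005-63381704 on the minus strand. Strand is not named as used for the counts, so reads where exons of neighbours overlap cannot be told apart. Sirt3 shares 418 exon bases with Ric8a and 342 with Psmd13, both on the other strand, Sirt7 shares 124 with Mafg on the same strand, and Foxo1 shares 674 with the antisense transcript Gm20402, which has no row in the table. Between 0% and 16.4% of the 31-base words of each of the 9 genes also occur in another gene, with the most in Sirt5. The share was 12.1% for Sirt3, 8% for Foxo1, 2.19% for Sirt7 and 0.106% for Foxo3.

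Foxo3 and Foxo1 were called lower in old than in young HSC, a call that Foxo1 lost in some settings given below. Their start regions, and that of Sirt1, a sirtuin known to act on FoxO factors, are shown to set their sequence makeup side by side. They are the stretches of the RefSeq windows (GRCm38.p6) that lie before the exon at that start, 5′ to 3′ on the strand of the gene. The annotated gene body of Sirt1 also reaches further upstream. They span 249 bases at chr3:52268087-52268335 (plus strand) for Foxo1, 190 bases at chr10:42276756-42276945 (minus strand) for Foxo3 and 235 bases at chr10:63339051-63339285 (minus strand) for Sirt1. Capitals mark matches, on either strand, to a CCAAT box (CCAAT), a GC box (GGGCGG) or an E-box (CACGTG).
Foxo1: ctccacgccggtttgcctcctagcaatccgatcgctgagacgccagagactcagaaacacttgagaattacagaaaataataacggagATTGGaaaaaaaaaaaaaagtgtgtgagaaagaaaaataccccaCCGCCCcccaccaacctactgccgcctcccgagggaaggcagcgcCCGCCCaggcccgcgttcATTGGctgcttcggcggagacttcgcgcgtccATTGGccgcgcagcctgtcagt
Foxo3: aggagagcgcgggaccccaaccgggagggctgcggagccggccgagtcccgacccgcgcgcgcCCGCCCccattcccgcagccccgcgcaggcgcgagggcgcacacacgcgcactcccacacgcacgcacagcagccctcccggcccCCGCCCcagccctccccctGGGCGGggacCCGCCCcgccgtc
Sirt1: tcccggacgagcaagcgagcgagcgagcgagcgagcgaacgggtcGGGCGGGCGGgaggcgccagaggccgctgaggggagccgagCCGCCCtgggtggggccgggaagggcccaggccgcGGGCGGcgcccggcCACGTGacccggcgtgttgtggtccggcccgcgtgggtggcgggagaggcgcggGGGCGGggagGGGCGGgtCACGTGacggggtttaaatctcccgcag
Foxo1 held 3 CCAAT boxes and 2 GC boxes here, Foxo3 4 GC boxes and no CCAAT box, and Sirt1 6 GC boxes, 1 pair of them overlapping, and 2 E-boxes. Over the whole RefSeq windows, from 250 bases before to 50 after the start, G and C made up 79% of the Sirt1 window, 75% of that of Foxo3 and 61.3% of that of Foxo1, against a median of 52.7% over 32851 mouse windows. The 9 genes had 11 such windows. A GC box was in 8 of the 11 and in 35.7% of all windows, and a CCAAT box in 4 of the 11 and 37.4% of all. An E-box was in 1 of the 11, that of Sirt1, and in 7.15% of all windows. The FoxO core element GTAAACA, searched on both strands, was in none of the 11 and in 3.65% of all windows, which says only that these letters are not in these windows.

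Per kilobase of merged exons, the nuclear Sirt6, a deacylase of histone H3, was the highest of the 9 in every library, at 16.7 CPM per kb on average over the 9 libraries (range 14.2 to 18.4). The cytoplasmic Sirt2 followed at 10.1 (9.60 to 10.7) and Sirt3, the main deacetylase of mitochondria, at 8.38 (7.26 to 9.73) CPM per kb. Sirt7, which sits in the nucleolus and at ribosomal genes, had 6.10 (5.29 to 6.75) CPM per kb and Foxo3 6.0 (5.14 to 7.02). The mitochondrial Sirt4 had 3.82, Sirt1 2.96 and the desuccinylase Sirt5 2.07 CPM per kb, and Foxo1 was the lowest at 0.601 (0.431 to 0.843). Every gene lay above the next in this order in all 9 libraries, except the pair of Sirt7 and Foxo3. Sirt7 was above Foxo3 in 6 of 9 libraries, all of them treated old or old, and Foxo3 was above Sirt7 in the 3 young libraries. Among all tested genes, 80.9% had a lower level per kb than Sirt6, 65.6% a lower one than Foxo3 and 24.7% a lower one than Foxo1.

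**Figure D1:**
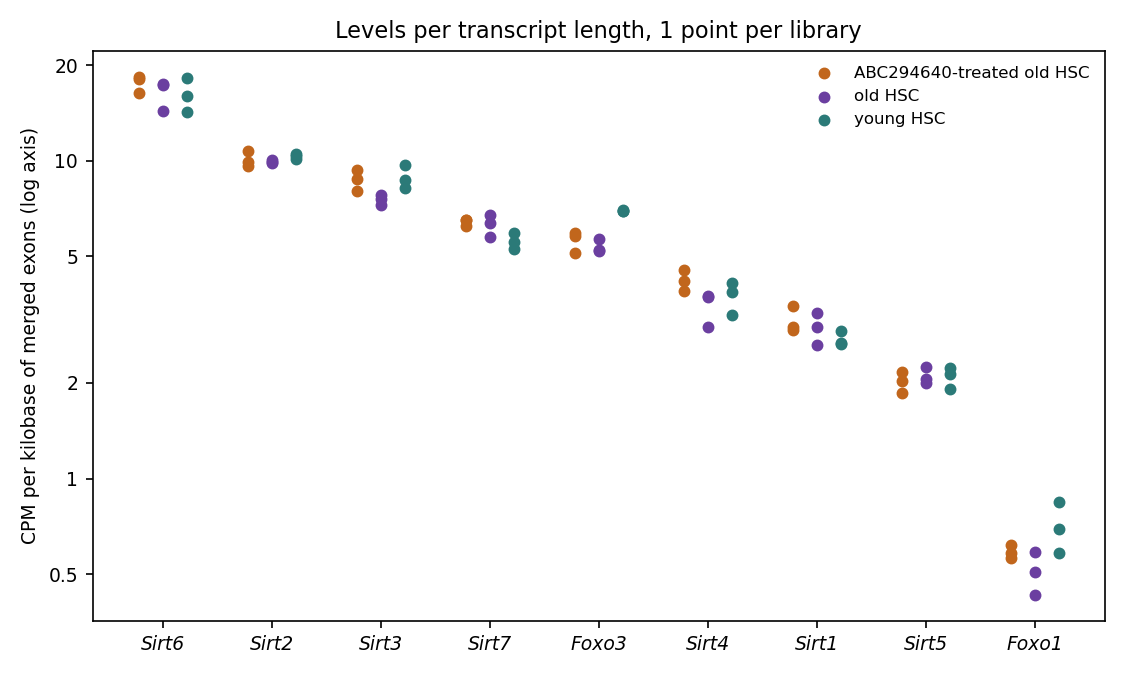
Level of each of the 9 genes per transcript length (y axis, CPM per kilobase of merged exons, log axis), 1 point per library, coloured by group. The points of neighbouring genes do not change places within a library, except for Sirt7 and Foxo3, whose order in the 3 young libraries is the opposite of that in the other libraries.

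Taken in CPM, the 7 sirtuins summed to 222.6, 234.9 and 214.7 CPM in treated old HSC, 213.9, 199.1 and 217.5 CPM in old HSC and 228.0, 204.4 and 213.1 CPM in young HSC. The ranges of the 3 groups overlapped. Foxo3 was read at 8.38 ± 0.757 times the CPM of Foxo1 in treated old HSC, 9.44 ± 1.92 times in old HSC and 8.83 ± 1.6 times in young HSC (SD, n = 3 each), a ratio that includes the difference in transcript length. Of the other FoxO genes, Foxo4 was low at 2.58 ± 0.252, 2.38 ± 0.413 and 2.6 ± 0.658 CPM in treated old, old and young HSC (SD, n = 3 each) and was called in no comparison. Foxo6 had 0, 2 and 1 counts in all in those groups and was not tested.

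**Figure D2:**
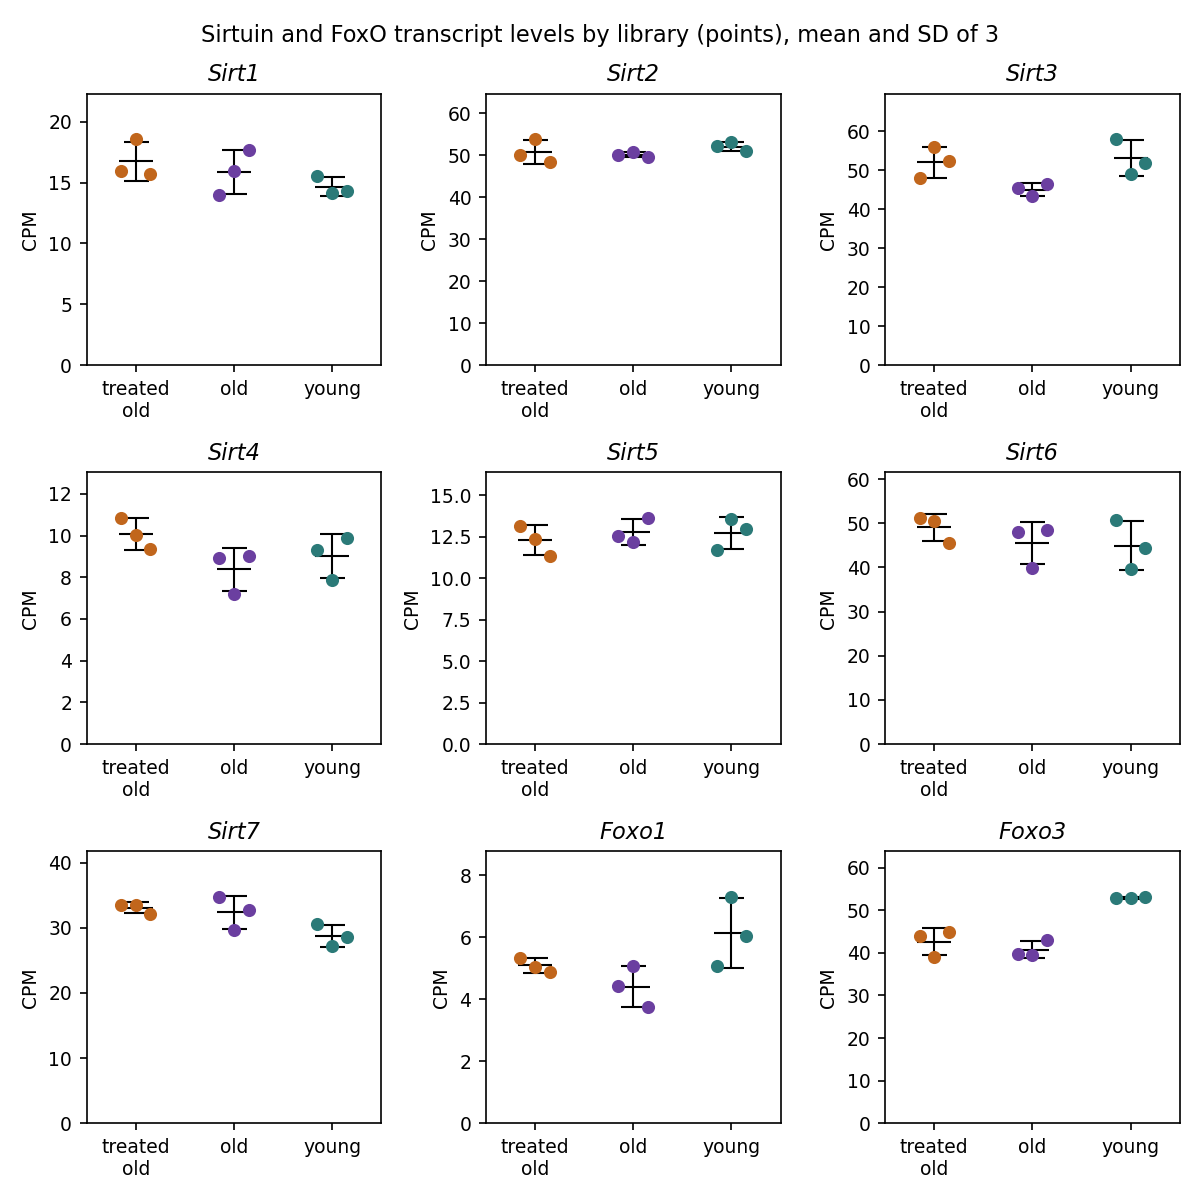
Level of each of the 9 genes in CPM (y axis, from 0) in each library (points), with the mean and SD of 3 libraries, for treated old, old and young HSC. Foxo3 in the 3 young libraries lies above all 6 libraries of old mice, and Sirt3 is lower in the 3 old libraries than in all others.

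In old HSC against young HSC, Foxo3, Foxo1 and Sirt3 were lower in old HSC and none of the 9 genes was higher. With edgeR's quasi-likelihood test and a Benjamini-Hochberg adjusted p under 0.05 as the threshold, that is 3 of 9, against 39.4% of the 14227 genes tested in either direction and 19.8% lower. The median log2 fold change was -0.05 over the 9 genes and -0.03 over all genes tested. With 9 genes, 3 calls are near the share over all genes, and what follows describes single genes. Without the first young library, which stood apart, 1 was higher (Sirt7) and 2 were lower (Foxo3 and Foxo1).

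Foxo3 had 39.7, 39.5 and 43.1 CPM in the 3 old libraries, against 52.8, 52.8 and 53.2 CPM in the 3 young libraries. The groups did not overlap, and the young libraries lay close together. Foxo3 was 1.30-fold lower in old HSC, with a log2 fold change of -0.38 ± 0.064 (SE, 95% interval -0.51 to -0.25, edgeR adjusted p = 8.61e-05). It ranked 1326 of 14227 genes by p, which places it among the lowest 9.32%. The call was kept in all 15 other settings tried, with log2 fold changes from -0.42 to -0.33. Without the first young library it was -0.37 (adjusted p = 0.000114).

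Foxo1 had 4.41, 5.07 and 3.73 CPM in the old libraries, against 5.06, 7.31 and 6.03 CPM in the young libraries. The groups overlapped, since the second old library lay just above the first young one. Foxo1 is the sparsest of the 9 genes, with 242 counts summed over the old libraries and 402 over the young. It was 1.37-fold lower in old HSC, with a log2 fold change of -0.46 ± 0.16 (SE, 95% interval -0.79 to -0.13, edgeR adjusted p = 0.0271). The call was lost with DESeq2 (adjusted p = 0.0529) and without 1 library: adjusted p was 0.163 without the second young library, 0.0586 without the third, 0.0680 without the first old library and 0.142 without the third. Without the first young library the log2 fold change was -0.58 (adjusted p = 0.00735).

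Sirt3, which deacetylates mitochondrial enzymes such as superoxide dismutase and is known from mice to be expressed in HSC, had 45.4, 43.4 and 46.5 CPM in the old libraries, against 58.1, 49.0 and 52.0 CPM in the young libraries. All old libraries lay below all young ones, and the first young library was the highest. The log2 fold change was -0.24 ± 0.070 (SE, 95% interval -0.38 to -0.09, 1.18-fold lower, edgeR adjusted p = 0.0105). The call was lost without that first young library (adjusted p = 0.0630) and without the second old library (adjusted p = 0.0661). Psmd13, the neighbour whose exons overlap Sirt3, averaged 27.7 ± 1.11 CPM in old HSC and 28.2 ± 0.703 CPM in young HSC (SD, n = 3 each) and was not called (adjusted p = 0.753). Ric8a, the other neighbour, averaged 63.5 ± 4.49 CPM in old HSC and 57.6 ± 2.55 CPM in young HSC (SD, n = 3 each) and was not called either (adjusted p = 0.0714).

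Sirt7 had 34.8, 29.7 and 32.8 CPM in the old libraries, against 30.6, 27.2 and 28.6 CPM in the young libraries. The groups overlapped, and the log2 fold change of 0.17 ± 0.073 (SE, 95% interval 0.02 to 0.32) did not pass the threshold (edgeR adjusted p = 0.0751). It passed with RLE size factors (adjusted p = 0.0494), with no filter on low counts (0.0273), without the first young library (0.0273) and without the second old library (0.0188). Mafg, whose exons overlap Sirt7 by 124 bases, averaged 49.3 ± 3.32 CPM in old HSC and 38.4 ± 1.84 CPM in young HSC (SD, n = 3 each) and was higher in old HSC (log2 fold change 0.36, adjusted p = 2.17e-04). The part of these shared bases in the Sirt7 values was not tested.

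The other 5 sirtuins were not called in old against young HSC. Sirt1 averaged 15.9 ± 1.85 CPM in old HSC and 14.7 ± 0.785 CPM in young HSC (SD, n = 3 each), with a 95% interval of the log2 fold change from -0.09 to 0.32. Sirt2 averaged 50.1 ± 0.650 CPM in old HSC and 52.0 ± 1.06 CPM in young HSC (SD, n = 3 each). Its 3 old libraries, at 49.5 to 50.8 CPM, lay just below the 3 young ones, at 50.9 to 53.0 CPM, yet its interval ran from -0.17 to 0.07. With Sirt3 and Foxo3 it made 3 of 9 genes whose old libraries all lay below the young ones, which held for 25.6% of all genes tested. None of the 9 had all its old libraries above the young ones, against 22.8% of all genes. Sirt4, Sirt5 and Sirt6 had log2 fold changes of -0.12 ± 0.12, 0.004 ± 0.099 and 0.01 ± 0.086 (SE), with adjusted p between 0.48 and 0.977. The intervals of Sirt1, Sirt5 and Sirt6 each held a change of 0.19 in log2 in the upward direction.

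**Figure D3:**
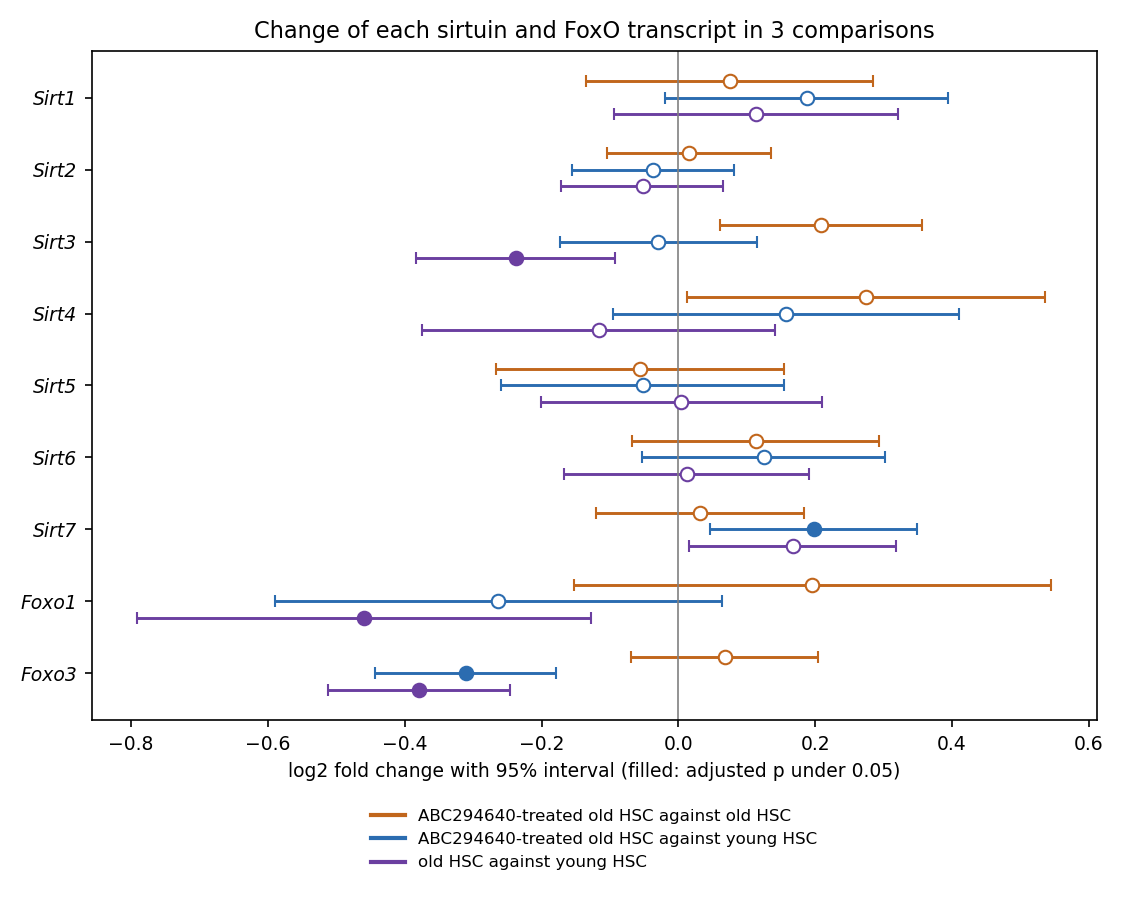
The log2 fold change of each gene (x axis) with its 95% interval in treated old against old HSC, treated old against young HSC and old against young HSC, from 1 edgeR fit over all genes. Filled points passed an adjusted p of 0.05: Foxo3 in both comparisons with young HSC, Foxo1 and Sirt3 in old against young HSC and Sirt7 in treated old against young HSC.

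In treated old HSC against old HSC, none of the 9 genes passed the threshold in edgeR, and none did in DESeq2. Over all genes tested, 1.19% passed in edgeR. At an unadjusted p under 0.05 there were 2 of the 9, Sirt3 and Sirt4, and 8.83% of all genes. The median log2 fold change was 0.08 over the 9 genes and 0.001 over all genes. This comparison shares its old libraries with the one above, so their values are given side by side and are not independent. The HSC marker sum was 572.6 to 577.8 CPM in treated old HSC, the erythroid sum 1185 to 1197 CPM and the megakaryocyte sum 402.8 to 421.0 CPM, all above the old libraries. The T and NK cell sum, nearly all of it Nkg7, lay above them too, at 1907 to 2076 CPM. The B cell and plasma cell sum, at 641.1 to 666.5 CPM, lay below them, and the granulocyte and monocyte sum, at 48910 to 49990 CPM, overlapped them. Of single markers, only 1 erythroid gene, Car1, and 1 megakaryocyte gene, Pf4, were called higher, and 1 plasma cell gene, Jchain, lower. Pf4 averaged 230.3 CPM in treated old HSC and 178.1 CPM in old HSC, and Car1 357.1 and 313.3 CPM. None of the 15 HSC markers was called. The part of these cell types in the values below was not tested.

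Sirt3 had 47.9, 55.9 and 52.4 CPM in treated old HSC, against 45.4, 43.4 and 46.5 CPM in old HSC. All treated libraries lay above all untreated ones. The log2 fold change was 0.21 ± 0.071 (SE, 95% interval 0.06 to 0.36) with an unadjusted p of 0.00795, and edgeR's adjusted p of 0.256 missed the threshold. Across the 15 other settings the adjusted p ran from 0.102 to 0.77.

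Sirt4, a mitochondrial sirtuin known to inhibit glutamate dehydrogenase, had 10.9, 10.04 and 9.35 CPM in treated old HSC, against 8.94, 7.18 and 8.998 CPM in old HSC. Here too the groups did not overlap. The log2 fold change was 0.27 ± 0.13 (SE, 95% interval 0.01 to 0.54, edgeR adjusted p = 0.534). Such a separation of treated above untreated libraries held for 2 of the 9 genes and for 8.34% of all genes tested, and the opposite for none of the 9 and 7.13% of all.

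Foxo3 had 44.0, 38.9 and 44.9 CPM in treated old HSC, against 39.7, 39.5 and 43.1 CPM in old HSC. The groups overlapped, and the interval of the log2 fold change, 0.07 ± 0.066 (SE), ran from -0.07 to 0.20 (edgeR adjusted p = 0.861). Foxo1 had 5.34, 5.05 and 4.88 CPM in treated old HSC, against 4.41, 5.07 and 3.73 CPM in old HSC, with an interval from -0.15 to 0.55 (adjusted p = 0.832). The remaining sirtuins had log2 fold changes between -0.06 for Sirt5 and 0.11 for Sirt6, with adjusted p between 0.796 and 0.976. The intervals of Sirt2 and Sirt7 lay between -0.12 and 0.18 in log2, and those of Sirt1, Sirt5 and Sirt6 between -0.27 and 0.29.

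In treated old HSC against young HSC, 1 of the 9 was higher, Sirt7, and 1 was lower, Foxo3, against 37.6% of all genes tested in either direction, 19.1% higher and 18.5% lower. Of the markers, 2 HSC genes were higher and 6 lower in treated old HSC, 10 granulocyte and monocyte genes higher and 2 lower, 2 erythroid genes higher and 9 lower, and 6 megakaryocyte genes lower. Of the B cell and plasma cell genes 3 were higher and 1 lower, and of the T and NK cell genes 2 were higher and 2 lower, and their part was not tested here either.

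Foxo3 had 44.0, 38.9 and 44.9 CPM in treated old HSC, against 52.8, 52.8 and 53.2 CPM in young HSC. The groups did not overlap, and the log2 fold change was -0.31 ± 0.064 (SE, 95% interval -0.44 to -0.18, 1.24-fold lower, edgeR adjusted p = 0.00067). The call was kept in all 15 other settings tried, with a log2 fold change of -0.31 without the first young library (adjusted p = 0.000837).

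Sirt7 had 33.5, 33.6 and 32.1 CPM in treated old HSC, against 30.6, 27.2 and 28.6 CPM in young HSC, again with no overlap. The log2 fold change was 0.20 ± 0.073 (SE, 95% interval 0.05 to 0.35, 1.15-fold higher, edgeR adjusted p = 0.0374). Without the first young library it was 0.25 (adjusted p = 0.0150). The call was lost under 6 of the 15 other settings. These were the stricter filter on low counts (adjusted p = 0.133) and leaving out the second (0.113) or the third young library (0.0731) or the first (0.0827), the second (0.0750) or the third treated library (0.0505). Mafg, its overlapping neighbour, was also higher in treated old HSC, at 45.1 ± 2.37 CPM, than in young HSC, at 38.4 ± 1.84 CPM (SD, n = 3 each, adjusted p = 0.0109), but not past the threshold with the stricter filter (0.0585).

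Sirt3 averaged 52.1 ± 4.01 CPM in treated old HSC and 53.1 ± 4.62 CPM in young HSC (SD, n = 3 each), and its interval ran from -0.17 to 0.12 in log2 (edgeR adjusted p = 0.771). Foxo1 averaged 5.09 ± 0.231 CPM in treated old HSC and 6.13 ± 1.13 CPM in young HSC (SD, n = 3 each), with an interval from -0.59 to 0.06 (adjusted p = 0.198). Sirt1 had 15.7 to 18.6 CPM in treated old HSC, all above the 14.1 to 15.6 CPM of young HSC, and was not called (log2 fold change 0.19 ± 0.099, SE, adjusted p = 0.144). With Sirt7 above and Foxo3 below, 3 of 9 genes had libraries that did not overlap, against 48.4% of all genes tested. Sirt6 was not called (adjusted p = 0.265), but passed with no filter on low counts (0.0469) and without the first young library (0.0288). Sirt2, Sirt4 and Sirt5 had adjusted p between 0.327 and 0.714.

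The genes around these factors were taken from lists chosen with earlier results of these data known, so their counts are a description. Over all lists 49 of 167 tested genes were higher and 17 lower in old HSC, against 19.6% higher and 19.8% lower over all genes. In either direction 66 of the 167 were called, or 39.5%, near the 39.4% of all genes tested. These shares over all genes stand beside each list count in old against young HSC that follows. Of 27 tested genes for kinases, 14-3-3 proteins, insulin pathway receptors and adaptors, and ubiquitin ligases that hold FoxO factors in the cytoplasm or break them down, 8 were higher and 3 lower in old HSC than in young HSC. Sgk1, a kinase that phosphorylates Foxo3, was read at 57.3 ± 4.18 CPM in old HSC and 26.2 ± 0.432 CPM in young HSC (SD, n = 3 each, 2.19-fold higher, edgeR adjusted p = 3.6e-11). Ywhaz, a 14-3-3 protein, had a log2 fold change of 0.43 (adjusted p = 1.29e-07) and shares 16.5% of its words with other genes. Mdm2, a ubiquitin ligase, had one of 0.42 ± 0.065 (SE, adjusted p = 3.4e-05). The other higher genes were Akt1, Sgk3, Pik3cb, Ywhae and Ywhah, and the lower ones included Akt2 and Pik3ca.

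Of 14 genes listed as favouring nuclear FoxO factors, which are phosphatases, kinases, Tsc1 and Tsc2, 2 were higher and 2 lower in old HSC. Ppp2ca, the catalytic subunit of protein phosphatase 2A, averaged 281.7 ± 5.23 CPM in old HSC and 173.8 ± 9.26 CPM in young HSC (SD, n = 3 each, adjusted p = 3.32e-10), but it shares 43% of its words with other genes and its count is uncertain. Stk4, the kinase MST1, was higher by 0.19 in log2 (adjusted p = 0.0141), a call lost with the stricter filter (0.0513). Phlpp2, an AKT phosphatase, was lower at 2.06 ± 0.557 CPM in old HSC and 3.75 ± 0.299 CPM in young HSC (SD, n = 3 each, adjusted p = 0.00362), as was Prkaa2. With no filter on low counts 7 genes of this list were called and with the stricter filter 2, against 4 here.

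Among 44 tested genes known as FoxO targets, 15 were higher and 3 lower in old HSC, with a median log2 fold change of 0.05. Over all genes tested, 19.6% were higher and 19.8% lower. The list was not split into targets raised and targets repressed by FoxO factors, so the counts do not measure FoxO activity. Foxo3 and Foxo1 transcripts themselves were lower there. Cited2, a coregulator of transcription needed for HSC upkeep in mice, averaged 197.4 ± 7.68 CPM in old HSC and 99.1 ± 3.03 CPM in young HSC (SD, n = 3 each, 1.99-fold higher, adjusted p = 7.99e-13). Gadd45a, a stress sensor that slows the cell cycle, averaged 56.4 ± 2.79 CPM in old HSC and 30.9 ± 0.856 CPM in young HSC (SD, n = 3 each, adjusted p = 5.58e-10), with 17% of its words shared. Atg12, needed to build autophagosomes, averaged 138.6 ± 1.77 CPM in old HSC and 99.7 ± 0.212 CPM in young HSC (SD, n = 3 each, adjusted p = 4.39e-08). The other higher targets were Becn1, Atg14, Bnip3, Bnip3l and Pink1 of autophagy and mitophagy, Gadd45b, Cdkn1a and Cdkn2d of cell cycle arrest, and Klf2, Klf6, Mxi1 and Bcl6, all transcription factors. Gabarapl1, Atm and Tnfsf10 were lower.

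**Figure D4:**
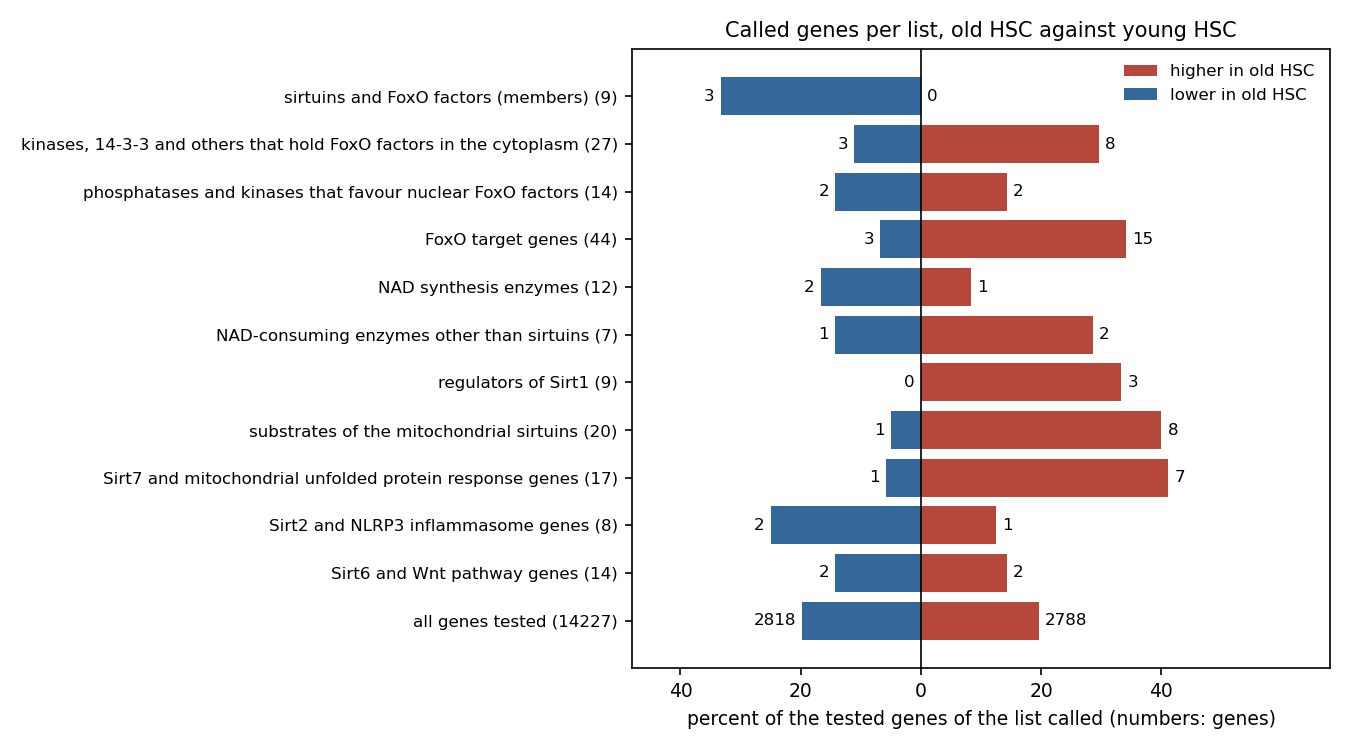
Share of the tested genes of each list that passed an adjusted p of 0.05 in old against young HSC (x axis, percent, higher to the right and lower to the left of 0), with the number of genes at each bar and the number tested in parentheses. Of the FoxO targets 15 of 44 were higher and 3 lower, and the 9 sirtuins and FoxO factors have 3 lower and 0 higher. Over all genes tested, 19.6% were higher and 19.8% lower.

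The lists tied to single sirtuins were mixed. Of 20 genes for proteins listed as substrates of the mitochondrial sirtuins, 8 were higher and 1 lower in old HSC, with a median log2 fold change of 0.17. Skp2 is in this list and also in that of the genes that hold FoxO factors in the cytoplasm or break them down. The higher genes are named next. They included Ndufa9, a subunit of respiratory complex I (0.28, adjusted p = 1.28e-04), Uqcrc2, a subunit of complex III (0.26, adjusted p = 5.97e-05), and Got2, the mitochondrial aspartate aminotransferase (0.39, adjusted p = 7.95e-06), in log2 fold change. Other genes hold 18.5% of the words of Uqcrc2 and 30.9% of those of Got2. The other higher ones were Opa1, Acadvl, Shmt2, Pdha1 and Idh2, and Ppif was lower.

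Of 17 genes listed for Sirt7 and the mitochondrial unfolded protein response, 7 were higher and 1 lower in old HSC. Sirt7 is known to restrain this response in HSC of mice, and the list also holds the regulators Nrf1, Gabpb1, Tfam and Polrmt. The mitochondrial chaperones Hspa9 (0.32, adjusted p = 5.35e-05) and Trap1 (0.27, adjusted p = 1.06e-04) were higher in log2 fold change, as were Dnaja3, Afg3l2, Clpx, Clpp and Hspd1. Hspe1, the cochaperone of Hspd1, averaged 367.9 ± 30.1 CPM in old HSC and 492.6 ± 37.8 CPM in young HSC (SD, n = 3 each, adjusted p = 8.72e-06). Its exons overlap those of Hspd1 and it shares 30.5% of its words, so the split of reads within this pair is uncertain. Of 9 tested regulators of Sirt1, 3 were higher and none was lower in old HSC. The higher ones were the deubiquitinase Usp22 (edgeR adjusted p = 3.78e-04), the RNA-binding protein Elavl1 (1.19e-04) and the kinase Dyrk3 (0.00539). With the stricter filter 6 regulators were called, 3 higher and 3 lower.

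Of 8 genes of the NLRP3 inflammasome, which Sirt2 is known to deacetylate, 1 was higher and 2 lower in old HSC. Gsdmd, the pore-forming effector, was higher by 0.23 in log2 (adjusted p = 0.00367), and Il18 was lower at 3.98 ± 0.629 CPM in old HSC and 6.58 ± 1.5 CPM in young HSC (SD, n = 3 each, adjusted p = 0.00378). Casp1, the protease that matures it, was lower by the test used here (adjusted p = 0.0302) and lost the call in 10 of the 15 other settings. Of 14 tested Wnt pathway genes, on which Sirt6 is known to act in HSC of mice, 2 were higher and 2 lower. Tcf7, a lymphoid transcription factor, averaged 3.48 ± 0.574 CPM in old HSC and 0.813 ± 0.225 CPM in young HSC (SD, n = 3 each, 4.28-fold higher, adjusted p = 1.15e-06). Myc was higher by 0.27 in log2 (adjusted p = 3.24e-04), and Tcf7l2 and Fzd6 were lower. The Tcf7l2 call (adjusted p = 0.0150) was lost without the second young library (0.0778) and without the first old one (0.0849). With the stricter filter 5 inflammasome genes were called, 1 higher and 4 lower, and 2 Wnt genes. Without the second young or the first old library 2 Wnt genes were called.

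NAD+ itself is made and used by other enzymes. Of 12 synthesis enzymes 1 was higher and 2 lower in old HSC. Nmnat1, the nuclear enzyme of the final step, had 169.0, 173.3 and 143.5 CPM in treated old HSC, 127.0, 117.9 and 133.6 CPM in old HSC and 163.3, 133.5 and 149.1 CPM in young HSC. The treated libraries all lay above the untreated old ones, which in the first and second replicate were below all others. Nmnat1 was lower in old than in young HSC by a log2 fold change of -0.24 ± 0.072 (SE, adjusted p = 0.0127) and higher in treated old than in old HSC by 0.36 ± 0.073 (SE, adjusted p = 0.0126), in edgeR. The age call was lost without the first young library (0.0644) and without the second old one (0.0855). The treatment call was lost without the first (0.0597) or second old library (0.0967) and without the first (0.116) or second treated library (0.132). Nadsyn1, the NAD synthetase, was higher in old than in young HSC by 0.35 in log2 (adjusted p = 0.0103), and Nmnat2 was lower (adjusted p = 0.0176) at under 1 CPM, a call lost without the second young library (0.0891) or the first old one (0.0763).

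Of 7 tested other enzymes that consume NAD+, Cd38, an NAD+ hydrolase, was higher at 6.66 ± 0.779 CPM in old HSC and 4.15 ± 0.328 CPM in young HSC (SD, n = 3 each, adjusted p = 7.12e-04). Tnks2, a tankyrase, was higher (adjusted p = 0.0270) and Parp3 lower (adjusted p = 0.00633). Leaving out 1 library ended the calls of Tnks2, at 0.142 without the second old and 0.0535 without the first young library, and of Parp3, at 0.0522 without the third old library. Among the genes listed above without values, Akt2, Pik3ca, Pik3cb, Prkaa2, Atm, Cdkn1a, Bcl6, Shmt2, Ppif, Dnaja3, Afg3l2, Hspd1 and Fzd6 also lost their call in old against young HSC without at least 1 old or young library. Ywhae and Bnip3l lost theirs with the stricter filter (edgeR adjusted p = 0.0707 and 0.13).

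In treated old against old HSC 3 of the 167 tested genes of these lists were called, or 1.8%, near the 1.19% of all genes. Besides Nmnat1, Cited2 was lower at 166.7, 168.5 and 167.9 CPM in treated old HSC, against 195.0, 206.0 and 191.2 CPM in old HSC (log2 fold change -0.24 ± 0.046, SE, edgeR adjusted p = 0.00917). It stayed above the young libraries, at 100.1, 101.6 and 95.7 CPM. The Cited2 call was lost without the second old library (0.0639) and without the first (0.0804) or second treated library (0.0570). Ppp2ca, with its uncertain count, was lower at 238.2 ± 9.02 CPM in treated old HSC and 281.7 ± 5.23 CPM in old HSC (SD, n = 3 each, adjusted p = 0.0103), and lost the call without the first (0.102) or second treated library (0.0953). Hspe1, at 427.1 ± 14.9 CPM in treated old HSC and 367.9 ± 30.1 CPM in old HSC (SD, n = 3 each), missed the threshold (adjusted p = 0.0882). It passed with DESeq2, with no filter, with the 2 groups alone and without the first young or the third old library. Against young HSC, with 19.1% of all genes higher and 18.5% lower, treated old HSC had 16 higher and 3 lower FoxO targets of 44, 7 higher and 1 lower mitochondrial sirtuin substrates of 20, and 8 higher and 2 lower of the 27 genes that hold FoxO factors in the cytoplasm or break them down (6 called in all with the stricter filter and without the first treated library).

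The genes whose log2 CPM over the 9 libraries was most like each of the 3 lower genes were taken from 7871 tested genes with a mean of at least 10 CPM. The libraries fall into the same 3 groups for every gene, so these correlations are a description only. For Foxo3 they were Gvin2 (Pearson r = 0.985), Ccl2 (0.979) and Rdh1 (0.979), all lower in old than in young HSC, with Ccl2 at 25.3 CPM in old HSC and 39.6 CPM in young HSC. Gvin2 shares 98.6% and Rdh1 27.9% of its words with other genes, so their counts are uncertain. For Sirt3 they were Timmdc1 (0.951), Hsd17b10 (0.946) and Larp1 (0.930), and for Foxo1 Adcy7 (0.953), Abcg2 (0.950) and Mga (0.943). Timmdc1, an assembly factor of respiratory complex I, averaged 31.4 CPM in treated old HSC, 28.2 CPM in old HSC and 32.4 CPM in young HSC.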

How the data were processed

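The members and all gene lists were chosen with earlier results of these data known. The deposited table holds an expected count per gene and library, and 56% of its non-zero values were whole. How the fractional ones arose is not stated. The tools named, per the submitters' processing notes and with no role or order, are STAR 2.6.1d, Trim Galore 0.6.2, edgeR 3.24.3 and HTSeq 0.10.0, with the genome build mm10. Groups and replicate numbers came from the sample labels.

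The deposited counts were rounded and tested in edgeR 4.0.16 (R 4.3.3) with TMM normalization, the default filter by group (14227 of 23317 genes kept), its quasi-likelihood test with all 9 libraries fitted together by group alone, and Benjamini-Hochberg adjustment over all genes tested at 0.05. The common coefficient of biological variation was 0.0583. CPM used library sizes scaled by TMM, and reads without molecular identifiers are not independent molecules. Replicate numbers were not taken as pairs, and a fit with a replicate block is given in the closing section. Same-numbered libraries correlated at 0.0628, 0.132 and 0.0636 between young and old HSC. Same-numbered pairs with a treated library ran from -0.0808 to -0.0205. Coordinates, exon lengths and 31-base words came from GENCODE mouse release 21 (GRCm38), and start regions from RefSeq GRCm38.p6.

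Every one of the 9 members is named in each comparison. From each list, up to 3 genes of smallest p past the threshold are named in the age comparison and in the comparison of treated with untreated old HSC, with genes whose bodies overlap a member and, for the 3 members of smallest p, the 3 genes of most similar pattern. The remaining called genes of a list, named without values, were added after their values were seen; 1 gene of a list is counted but not reported by name here. Alternatives were DESeq2 1.42.0, RLE size factors, leaving the filter out, a filter of 5 CPM in 3 libraries, the 2 groups alone, a replicate block and leaving out each library. The test was checked on simulated counts. Tables, sequences and figures were handled with matplotlib 3.10.9, scipy 1.17.1, pandas 2.3.3 and numpy 2.4.6 in Python 3.11.15.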

Additional observations from a re-analysis of the deposited data

How the results depend on the processing

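Of the 9 genes, Foxo3 kept its direction and its call against young HSC under all 15 alternatives, and the other called genes lost theirs as given in the report; the cause was not tested. Genes called in treated old against old HSC numbered 170, against 333 with no filter, 260 with the 2 groups alone and 48 to 286 without 1 library. Members called in treated old against young HSC numbered 2, against 1 with the stricter filter and 1 to 3 without 1 library. Without 1 library, genes called ran from 4791 to 5723 for old against young HSC and from 4508 to 5608 for treated old against young HSC, and members called in old against young HSC from 2 to 3. With DESeq2, 4991 genes and 2 members were called for old against young HSC, and with RLE size factors 5646 genes and 4 members. The replicate block gave 5582, 195 and 5355 genes and 3, 0 and 2 members for old against young, treated old against old and treated old against young HSC, where the fit without it gave 5606, 170 and 5355 genes and the same member counts, and under the block Hspe1 also passed in treated old against old HSC; correlations of same-numbered libraries ran from -0.0808 to 0.132, and 5 of 9 libraries correlated best with their own number.

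Log2 fold changes that turned sign all lay near 0 and none was called. With no filter, treated old against young HSC gave 0.009 for Sirt2 and 0.017 for Sirt3. With the stricter filter, old against young HSC gave -0.04 for Sirt5 and -0.032 for Sirt6. Leaving out 1 library gave, for old against young HSC, -0.192 to 0.007 for Sirt4, -0.049 to 0.063 for Sirt5 and -0.058 to 0.117 for Sirt6; for treated old against old HSC, -0.01 to 0.15 for Sirt1, -0.035 to 0.05 for Sirt2, -0.112 to 0.001 for Sirt5 and -0.033 to 0.085 for Sirt7; and for treated old against young HSC, -0.067 to 0.001 for Sirt2, -0.075 to 0.044 for Sirt3 and -0.111 to 0.01 for Sirt5. Foxo1 had the lowest counts of the 9 genes, at 61 to 149 per library.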
